A study of Mus musculus with 4 samples.

Results

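Type I interferon-stimulated genes are the antiviral program that a cell switches on when interferon-alpha or interferon-beta binds its receptor. A list of 35 of them was followed here through tumors of Lrrc25-/- mice and WT mice. The list was chosen by gene function, with earlier results of these data known. Of its 35 members 33 were found by symbol among the 32285 genes of the matrices. Mx1 and Mx2 were not analysed here. No member was used to define a cell class.

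The tumors were B16F10 melanoma taken on day 14 and MC38 colon carcinoma taken on day 26, and the inoculated tumor lines were the same for both host genotypes. Each of the 4 groups (Lrrc25-/- B16F10, WT B16F10, Lrrc25-/- MC38 and WT MC38) was 1 single-cell library made from pooled tumors of 3 mice, with no treatment. A piece of 100 mm3 came from each tumor, and bead-isolated CD45+ cells were mixed 5 to 1 with the unsorted suspension. The labels call the material tumor cells, but 42.4%, 42.3%, 62.2% and 61.9% of the filtered cells, in the order of the groups above, were monocytes or macrophages by their markers. Age and strain are not in the labels. With 1 pool per group, differences within a tumor model have no replicate check, and their intervals cover counting error only.

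Binding of type I interferon to the receptor chains Ifnar1 and Ifnar2 activates the kinases Jak1 and Tyk2, which phosphorylate Stat2. Together with Irf9 it acts in a complex that binds the interferon-stimulated response element (ISRE) in promoters. In human cells LRRC25, a leucine-rich repeat protein of myeloid cells, has been described as a brake on this pathway that promotes the autophagic breakdown of ISG15-bound RIG-I. Macrophages are both a source of interferon-beta and a strong responder to it.

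The ISRE letters are shown for some of the members that carry them in their promoter. These are past the 1.5-fold rule explained below in monocytes and macrophages, or among the 3 most abundant members there. They also hold the motif before the start site. Other holders, among them Ifih1, Ifitm3, Rsad2, Stat2, Trim30a, Eif2ak2, Oas3 and Ifit3, are not shown. The search was for GAAA, any 2 bases and GAAA again (TTTC, any 2 bases and TTTC on the other strand), with overlapping matches allowed, in RefSeq promoter windows of build GRCm38.p6 running from 250 bases before to 50 after the start site. Of the 35 listed genes 26 had a window, and 13 of these held the motif, 7 of them at least 2 times. Of all 27025 genes with a window, 3.99% held it. Each stretch below is the 100 bases of the gene's own strand with the motif in capitals: Ifit1 (chr19:34640749-34640848, plus strand), Bst2 (chr8:71537545-71537644, minus strand), Ifi205 (chr1:174031835-174031934, minus strand) and Ddx60 (chr8:61927987-61928086, plus strand).
Ifit1: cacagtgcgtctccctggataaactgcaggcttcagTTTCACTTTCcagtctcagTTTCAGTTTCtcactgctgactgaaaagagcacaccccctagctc
Bst2: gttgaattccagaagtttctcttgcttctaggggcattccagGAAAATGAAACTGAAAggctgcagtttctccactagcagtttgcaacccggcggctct
Ifi205: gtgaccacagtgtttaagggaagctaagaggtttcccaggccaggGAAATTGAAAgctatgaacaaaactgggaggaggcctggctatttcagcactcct
Ddx60: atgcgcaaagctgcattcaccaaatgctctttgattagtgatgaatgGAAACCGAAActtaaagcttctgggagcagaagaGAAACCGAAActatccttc
Ifit1 and Ddx60 hold 2 separate copies, Bst2 holds 2 overlapping copies and Ifi205 holds 1. The letters of the interferon-gamma-activated site, TTCNNNGAA, were in 7 of the 26 member windows (26.9%) and in 9.55% of all genes' windows. A match is a description of sequence and not a measured binding site.

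The libraries held 122558030, 138841749, 118098009 and 105338548 UMIs (unique molecular identifiers, 1 per captured transcript) in the order of the groups above, and between 9319 and 15792 cells passed filtering in each. Pairs of libraries shared 96 to 247 cell barcodes. Monocytes and macrophages numbered 4891 Lrrc25-/- and 3941 WT cells in B16F10, and 9520 Lrrc25-/- and 9775 WT cells in MC38. Their Lrrc25 level was 4.69 CPM (UMIs scaled to a class total of 1000000) in the Lrrc25-/- pool and 159 CPM in the WT pool of B16F10, and 2.14 CPM and 90.0 CPM in those of MC38. Of 15222 genes tested in this class over the 4 libraries, Lrrc25 was the one gene called for genotype by edgeR (log2 -5.21, SE 0.18, adjusted p = 9.57e-06). Xist measured 651 and 641 CPM in the Lrrc25-/- and WT pools of MC38 and 0.0226 and 0.0295 CPM in those of B16F10, while Y-linked transcripts summed to 0.0544 and 0.158 CPM against 85.3 and 75.2 CPM. The hosts of the models thus differed in sex, so that tumor model, day and sex cannot be told apart, whereas both genotypes within a model were alike in this.

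In monocytes and macrophages of B16F10 tumors the interferon-stimulated genes were slightly and broadly higher in the Lrrc25-/- pool. All 33 members had a log2 ratio of Lrrc25-/- over WT above 0, and the 21 members that could be measured (at least 20 CPM in either pool and 50 UMIs in sum) had a median of 0.31, where all 4670 genes measured had a median of 0.02. Counting a gene as higher or lower from a 1.5-fold difference in CPM after adding 1 CPM to each value, 3 members were higher and 0 lower. Over all genes measured, 4.07% were higher and 1.03% lower. Summed over 31 members, leaving out the very abundant Ifitm3 and Bst2, the level was 1431 CPM in the Lrrc25-/- pool and 1106 CPM in the WT pool (ratio 1.29, 95% interval 1.28 to 1.31).

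The 3 members past the rule in B16F10 have unlike roles. Irf7, the transcription factor that amplifies interferon production (chr7:141262706-141266481, minus strand), measured 90.4 CPM in the Lrrc25-/- pool and 54.0 CPM in the WT pool (ratio 1.68, 1.59 to 1.77). Ifitm3, a membrane protein that blocks entry of viruses (chr7:141009586-141010770, minus strand), measured 1248 CPM in the Lrrc25-/- pool and 794 CPM in the WT pool (ratio 1.57, 1.55 to 1.59). Ifi205, a member of the PYHIN family of DNA-binding proteins (chr1:174011998-174031810, minus strand), measured 47.7 CPM in the Lrrc25-/- pool and 20.5 CPM in the WT pool, the largest ratio among the measured members (2.33, 2.13 to 2.54). Weighted to a common mix of macrophage subsets, Irf7 (log2 0.43) and Ifitm3 (log2 0.27) no longer passed the rule, against log2 0.73 and 0.65 without weighting. Monocytes made up 10.4% of the class in the Lrrc25-/- pool and 4.52% in the WT pool, and Mrc1+ macrophages 25.1% and 36.1%.

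The other members of B16F10 macrophages, by role, lay closer to equal. Of the remaining transcription factors of the pathway, Stat2 measured 13.2 CPM in the Lrrc25-/- pool and 12.1 CPM in the WT pool, and Irf9 26.5 and 19.9 CPM. Among the oligoadenylate synthetases and their relatives, which sense double-stranded RNA, Oasl1 measured 205 CPM in the Lrrc25-/- pool and 173 CPM in the WT pool. Rsad2 (viperin), an enzyme that makes a chain-terminating nucleotide, measured 209 and 147 CPM (ratio 1.42, 1.37 to 1.47). Bst2 (tetherin), which holds budding virus at the cell surface, measured 518 and 438 CPM. The IFIT genes, whose proteins bind viral RNA, were among those nearest to equal, with Ifit1 at 86.5 and 79.8 CPM, Ifit2 at 18.2 and 16.1 CPM, and Ifit3 at 25 and 23.6 CPM in the Lrrc25-/- and WT pools.

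In monocytes and macrophages of MC38 tumors the same list was lower in the Lrrc25-/- pool. Here 28 members were measured, with a median log2 ratio of -0.27 against -0.01 over 5766 genes. Of the measured members 6 were lower and 0 higher by the 1.5-fold rule, where 2.53% of all genes measured were lower and 0.850% higher. The sum of 31 members was 1701 CPM in the Lrrc25-/- pool and 2164 CPM in the WT pool (ratio 0.786, 0.779 to 0.793). Of the 33 members, Zbp1 and Ifitm3 were the 2 with a ratio above 1.

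**Figure D1:**
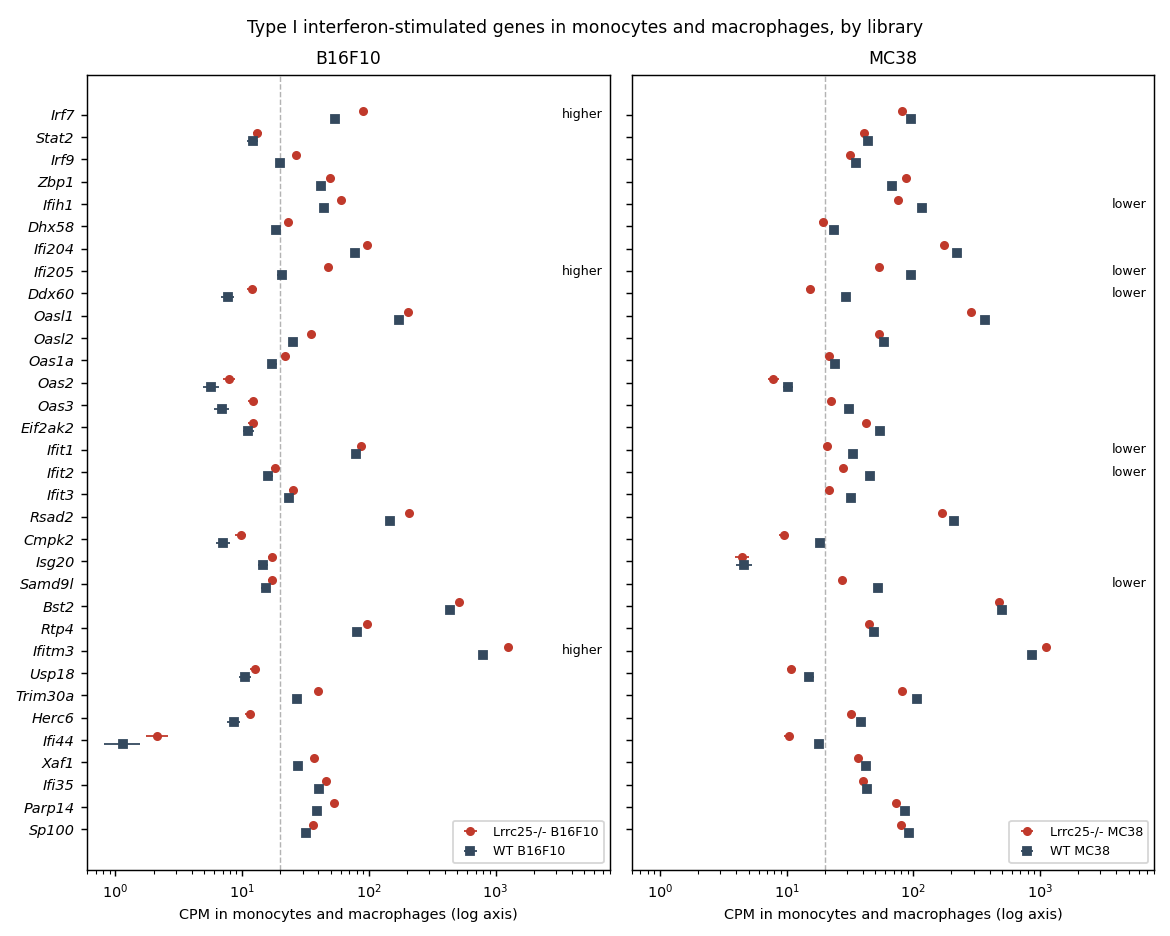
Level of each of the 33 members in monocytes and macrophages (CPM, log axis), Lrrc25-/- (red circles) and WT (dark squares) pools, B16F10 left and MC38 right. Bars are exact Poisson intervals at 95% (counting error only), the dashed line is 20 CPM, and members past the 1.5-fold rule are marked higher or lower. In B16F10 every red circle lies to the right of its square, and in MC38 this holds for 2 members, Zbp1 and Ifitm3.

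The 6 lower members of MC38 macrophages were Ifit1, Ifit2, Ifih1, Ddx60, Samd9l and Ifi205. Ifit1 (chr19:34640871-34650009, plus strand) measured 21.0 CPM in the Lrrc25-/- pool and 33.5 CPM in the WT pool (ratio 0.628, 0.581 to 0.678). Its neighbour Ifit2 (chr19:34550694-34576419, plus strand) measured 28.0 CPM in the Lrrc25-/- pool and 45.3 CPM in the WT pool (ratio 0.618, 0.578 to 0.661). In B16F10 the ratios of Ifit1 and Ifit2 were 1.08 and 1.13. Ifih1, which encodes the double-stranded RNA sensor MDA5 (chr2:62595798-62646255, minus strand), measured 75.6 CPM in the Lrrc25-/- pool and 118 CPM in the WT pool (ratio 0.639, 0.614 to 0.666). Ddx60, an antiviral helicase (chr8:61928087-62038244, plus strand), measured 15.3 CPM in the Lrrc25-/- pool and 29.3 CPM in the WT pool (ratio 0.521, 0.477 to 0.569). Samd9l, a restriction factor for poxviruses (chr6:3372257-3399572, minus strand), measured 27.2 CPM in the Lrrc25-/- pool and 52.2 CPM in the WT pool (ratio 0.520, 0.487 to 0.555). Samd9l and Ddx60 had the lowest ratios among the measured members.

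Ifi205 was the one member past the rule in both models, and in opposite directions. It measured 53.3 CPM in the Lrrc25-/- pool and 96.0 CPM in the WT pool of MC38 (log2 -0.84, ratio 0.556, 0.530 to 0.582), against log2 1.18 in B16F10. Ifi205 and Ifi204 belong to a cluster of closely similar genes, and how reads shared between such copies were counted is not given in the sources used here. Ifi204 itself measured 174 CPM in the Lrrc25-/- pool and 222 CPM in the WT pool of MC38, and 96.5 and 78.1 CPM in those of B16F10. The same caution on similar copies holds for Oas1a, Trim30a, Ifit3 and Sp100. Irf7, Oasl1, Usp18, Rtp4, Dhx58, Ifi35 and Sp100 overlap a gene of the opposite strand, and Irf9 and Rtp4 overlap one of their own strand.

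The remaining MC38 members kept within the 1.5-fold bound. Oasl1 measured 283 CPM in the Lrrc25-/- pool and 368 CPM in the WT pool (ratio 0.769), and Rsad2 169 and 209 CPM (ratio 0.812). Bst2 was nearly level at 471 and 497 CPM, as were Stat2 at 41.0 and 43.9 CPM and Irf9 at 31.7 and 35.5 CPM. Irf7, higher in the Lrrc25-/- pool of B16F10, measured 81.2 CPM in the Lrrc25-/- pool and 95.6 CPM in the WT pool of MC38. Zbp1, a sensor of left-handed nucleic acid that triggers cell death, measured 87.8 and 67.3 CPM (ratio 1.31), and Ifitm3 1122 and 870 CPM (ratio 1.29). Among members too low to be measured, Cmpk2, a mitochondrial nucleotide kinase, stood at 9.48 and 18.4 CPM and Ifi44 at 10.4 and 18.0 CPM.

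Markers of other cell types in this class also differed between the pools. The summed neutrophil list (8 of 8 markers detected in each pool) measured 112 and 81.7 CPM in the Lrrc25-/- and WT pools of B16F10 and 64.9 and 50.8 CPM in those of MC38. The T cell list (8 of 8 in each) measured 40.2 and 94.8 CPM in B16F10 and 39.0 and 13.6 CPM in MC38. In B16F10 the melanoma list (8 of 8 in each) measured 315 CPM in the Lrrc25-/- pool and 446 CPM in the WT pool. In MC38 the MC38 tumor list (5 and 4 of 8 detected) measured 30.0 and 22.4 CPM. Per cell of the class the median was 7834 UMIs in Lrrc25-/- and 7957 in WT cells of B16F10, against 5846 and 4345 UMIs in MC38. Over all filtered cells it was 5407 and 9674 UMIs in B16F10 and 5459 and 4344 in MC38. The median mitochondrial share in the class was 0.537% in Lrrc25-/- and 0.274% in WT cells of B16F10, and 2.37% and 2.52% in those of MC38. The part of these marker, depth and mitochondrial differences in those of the list was not tested.

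Split by subset, the 3 largest medians of B16F10 were those of C1q-negative myeloid cells outside the monocyte gate, of monocytes and of Ly6c2/Plac8+ C1q+ macrophages. In monocytes (Ly6c2 or Plac8 positive, C1q negative; 510 Lrrc25-/- and 178 WT cells) the median over 22 measured members was 0.61, with 11 higher and 0 lower, where 11.6% of all genes measured were higher and 6.45% lower. Rsad2 measured 125 CPM in the Lrrc25-/- pool and 61.0 CPM in the WT pool, Trim30a 56.7 and 21.5 CPM, and Ifit1 33 and 10.8 CPM, the last from 95 and 9 UMIs. In Ly6c2/Plac8+ C1q+ macrophages the median was 0.53, and 10 of 26 measured members were higher and 0 lower, against 8.59% and 4.83% of all genes. There, Rsad2 measured 348 CPM in the Lrrc25-/- pool and 162 CPM in the WT pool (ratio 2.14, 1.90 to 2.42) and Irf7 241 and 136 CPM. Other C1q-negative myeloid cells had a median of 0.67 with 13 of 19 higher and 0 lower against 13.0% and 5.96% of all genes, but their WT pool held 110 cells. Neutrophil markers summed to 281 CPM in Lrrc25-/- monocytes of B16F10 (8 of 8 detected) and 126 CPM in WT monocytes (5 of 8, with Cxcr2, Retnlg and Mmp9 at 0). Their part in these differences was not tested.

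The C1q+ macrophage subsets of B16F10 were less uniform. Mrc1+ macrophages, the largest subset, had a median of 0.34, and 4 of 22 measured members were higher and 0 lower against 2.77% and 0.817% of all genes. Those were Rsad2 (232 CPM in the Lrrc25-/- pool, 140 CPM in the WT pool), Irf7 (41.5 and 24.9 CPM), Ifit2 (23.9 and 14.4 CPM) and Ifi205 (21.0 and 13.6 CPM). Arg1+ macrophages had a median of -0.01 (-0.14 to 0.07 over 8 alternatives), with 0 members higher and 3 lower, where 5.25% of all genes measured were higher and 1.86% lower. Ifit2 measured 14.2 CPM in the Lrrc25-/- pool and 37.5 CPM in the WT pool of that subset (ratio 0.380, interval 0.285 to 0.505), Ifit3 25.3 and 44.6 CPM, and Cmpk2 11.8 and 20.9 CPM. Cycling macrophages had a median of 0.28 with 0 members past the rule in either direction, where 2.92% of all genes were higher and 1.03% lower. Cxcl9+ macrophages had a median of 0.30, with 2 of 22 members higher and 0 lower, where 8.56% of all genes were higher and 2.97% lower. In the other C1q+ macrophages the median was 0.20, with 4 of 24 higher and 0 lower against 5.31% and 1.38% of all genes.

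In MC38 the lower level was widest in the Cxcl9+ and unmarked C1q+ macrophages. Cxcl9, the chemokine that sets the first gate, is itself induced by interferons. In Cxcl9+ macrophages the median over 29 measured members was -0.44, with 11 lower and 0 higher, where 4.49% of all genes measured were lower and 1.17% higher. Cmpk2 measured 5.27 CPM in the Lrrc25-/- pool and 21.3 CPM in the WT pool there, Ddx60 11.6 and 32.8 CPM, and Ifit2 20.6 and 56.9 CPM. Arg1+ Cxcl9+ macrophages had a median of -0.46, with 9 of 28 lower and 0 higher against 3.63% and 0.828% of all genes. In them Ifi205 measured 33.4 CPM in the Lrrc25-/- pool and 89.2 CPM in the WT pool (ratio 0.374, 0.333 to 0.419), and Ifih1 64.3 and 125 CPM. The other C1q+ macrophages had a median of -0.51, with 10 of 29 lower and 0 higher against 6.93% and 5.81%, and Ifit1 at 25.3 and 99.5 CPM in the Lrrc25-/- and WT pools, at a median of 1430 and 1190 UMIs per cell.

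The remaining MC38 subsets had medians nearer to 0. Arg1+ macrophages had a median of -0.33, with 5 of 29 members lower and 0 higher against 2.28% and 0.924% of all genes. Monocytes had a median of -0.20, with 9 of 31 lower and 0 higher against 6.64% and 5.73%. In MC38 monocytes Rsad2 measured 204 CPM in the Lrrc25-/- pool and 400 CPM in the WT pool. Mrc1+ macrophages had a median of 0.11 (-0.00 to 0.19 over 8 alternatives, 1 of the other sign), with Ifitm3 (829 and 540 CPM) and Ifi35 (49.5 and 29.4 CPM) higher and Oas3 (14.7 and 30.7 CPM) and Ifi205 (ratio 0.589) lower, where 4.59% of all genes were higher and 6.69% lower. Ly6c2/Plac8+ C1q+ macrophages had a median of -0.22, with 1 of 28 members lower and 0 higher, where 4.44% of all genes were lower and 1.97% higher. Cycling macrophages had 5 of 25 lower and 0 higher (3.15% and 0.709% of all genes), and other C1q-negative myeloid cells 3 of 26 lower and 0 higher (5.90% and 4.92%). Across subsets, Ifi205 was lower in all 9 compared in MC38 and higher in 5 of 8 in B16F10, with a ratio above 1 in the other 3. Over the same subsets, 2.28% to 6.93% of all genes were lower in MC38 and 2.77% to 13.0% higher in B16F10. Samd9l was lower in 7 and Ifih1 in 6 of the 9 MC38 subsets.

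**Figure D2:**
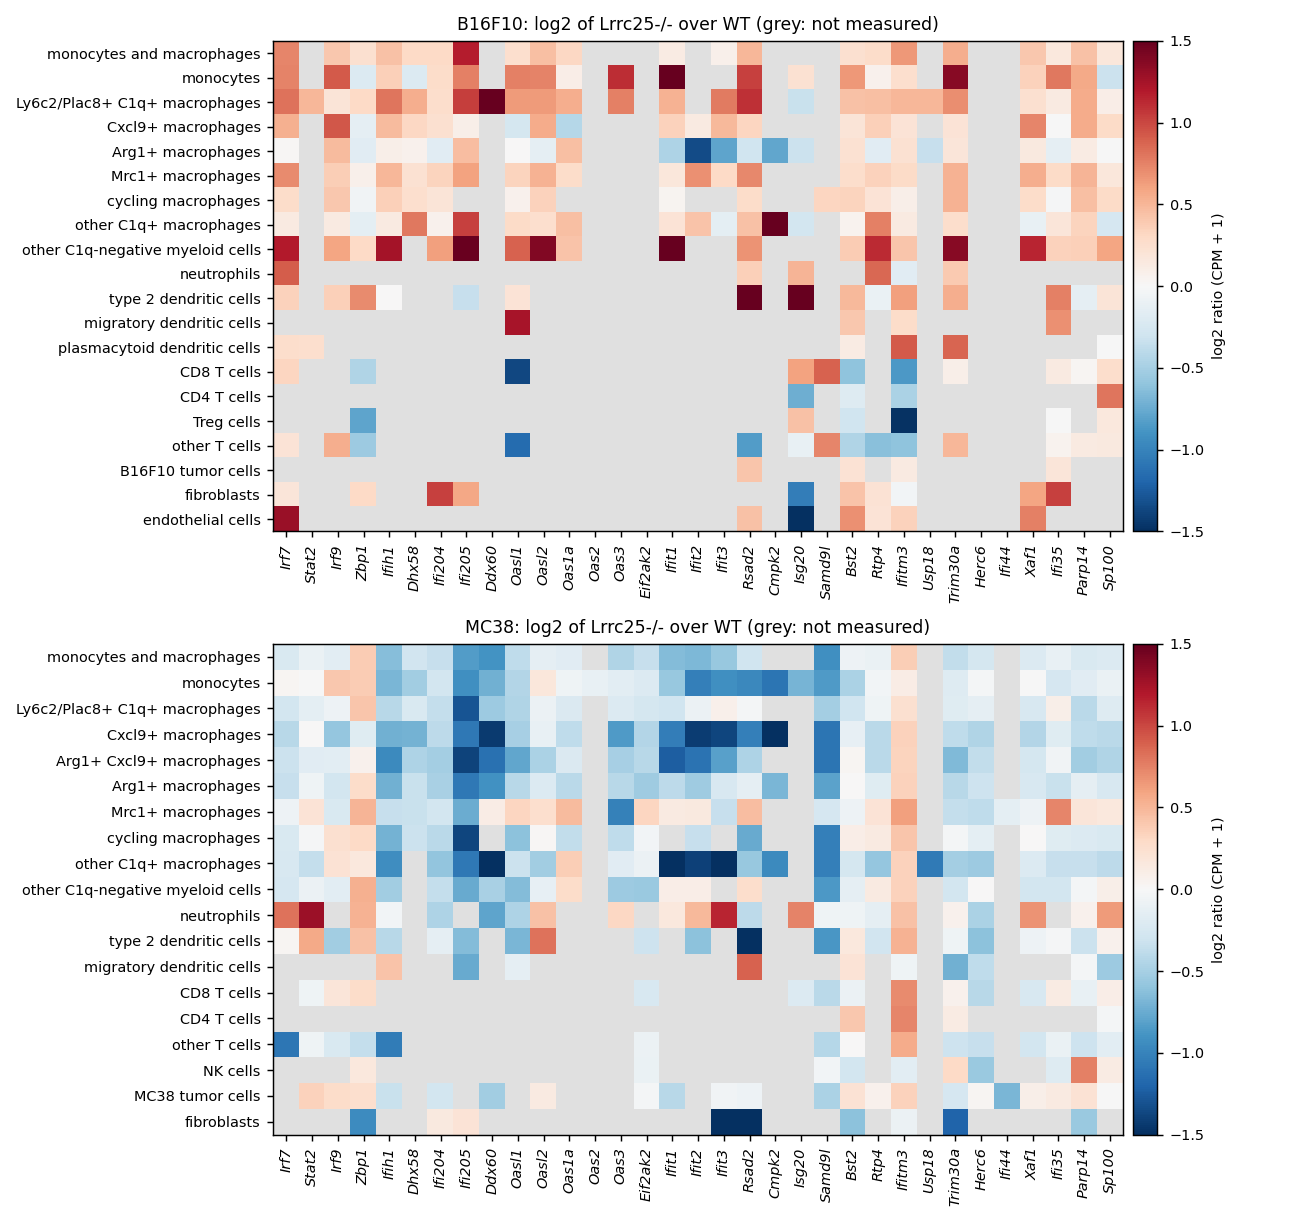
Log2 ratio of Lrrc25-/- over WT (after adding 1 CPM) for each member (columns) in each cell class (rows), B16F10 above and MC38 below, with grey where a member was not measured and the scale ending at 1.5 in either direction. The myeloid rows are mostly red in B16F10 and mostly blue in MC38, and Ifi205 is blue in every MC38 macrophage row.

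Outside the monocytes and macrophages, among classes with at least 4 members measured, 8 of 11 in B16F10 and 3 of 9 in MC38 had a median above 0. The medians over all genes measured in these classes ran from 0.01 to 0.14 in B16F10 and from -0.05 to 0.06 in MC38. In B16F10 CD8 T cells the member median of 0.09 lay below the 0.12 of all genes, and it changed sign in 2 of 8 alternatives. That of MC38 tumor cells, 0.01, changed sign in 3 of 8. Neutrophils of MC38 had a median of 0.16, with 6 of 23 members higher and 1 lower, where 17.5% of all genes were higher and 15.7% lower. The sum of 31 members was level in them, at 6775 CPM in the Lrrc25-/- pool and 6771 CPM in the WT pool. Type 2 dendritic cells had a median of 0.36 in B16F10, with 5 of 15 members higher and 0 lower against 15.9% and 5.82% of all genes. In MC38 their median was -0.21, with 6 of 22 lower and 1 higher against 8.83% and 6.17%. Fibroblasts of MC38 had a median of -0.61, with 5 of 9 members lower and 0 higher, where 12.2% of all genes were lower and 13.3% higher, from 53 Lrrc25-/- and 60 WT cells. In B16F10 fibroblasts the median was 0.37, with 3 of 10 higher and 1 lower against 9.92% and 5.53%.

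In CD8 T cells the summed level of 31 members was nearly the same in both genotypes. It was 454 CPM in the Lrrc25-/- pool and 458 CPM in the WT pool of B16F10, and 720 and 730 CPM in those of MC38. With Ifitm3 and Bst2 included, the sum in B16F10 CD8 T cells was 693 CPM in the Lrrc25-/- pool and 860 CPM in the WT pool (ratio 0.806, upper bound of the interval 0.866). Of 11 members measured in B16F10 CD8 T cells, 2 were higher and 3 lower, where 12.9% of all genes were higher and 4.98% lower. In those of MC38, 1 of 14 was higher and 0 lower against 3.88% and 5.00%. The T cells outside the CD8, CD4 and Treg classes had 1 of 14 members higher and 4 lower in B16F10, where 18.8% of all genes were higher and 6.57% lower. In MC38 0 of 15 were higher and 2 lower in them, where 7.74% were higher and 6.97% lower. Transcripts of macrophages (C1qa, C1qb, C1qc and Lyz2) in these CD8 T cells stood at 2.16% of the macrophage level in the Lrrc25-/- pool and 5.67% in the WT pool. The 31 members stood at 31.7% and 41.4% of their own macrophage level in the same pools, and the part of macrophage RNA in the CD8 T cell values was not tested. In B16F10 tumor cells the sum of 31 members was 207 CPM in the Lrrc25-/- pool and 169 CPM in the WT pool (ratio 1.22, 1.19 to 1.26). They had 4 members measured, with a median of 0.20 and 0 past the rule, where 2.50% of all genes were higher and 0.239% lower. MC38 tumor cells had 22 members measured, with a median of 0.01 and 1 lower, Ifi44, at 14.6 CPM in the Lrrc25-/- pool and 24.2 CPM in the WT pool, where 0.726% of all genes were lower.

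**Figure D3:**
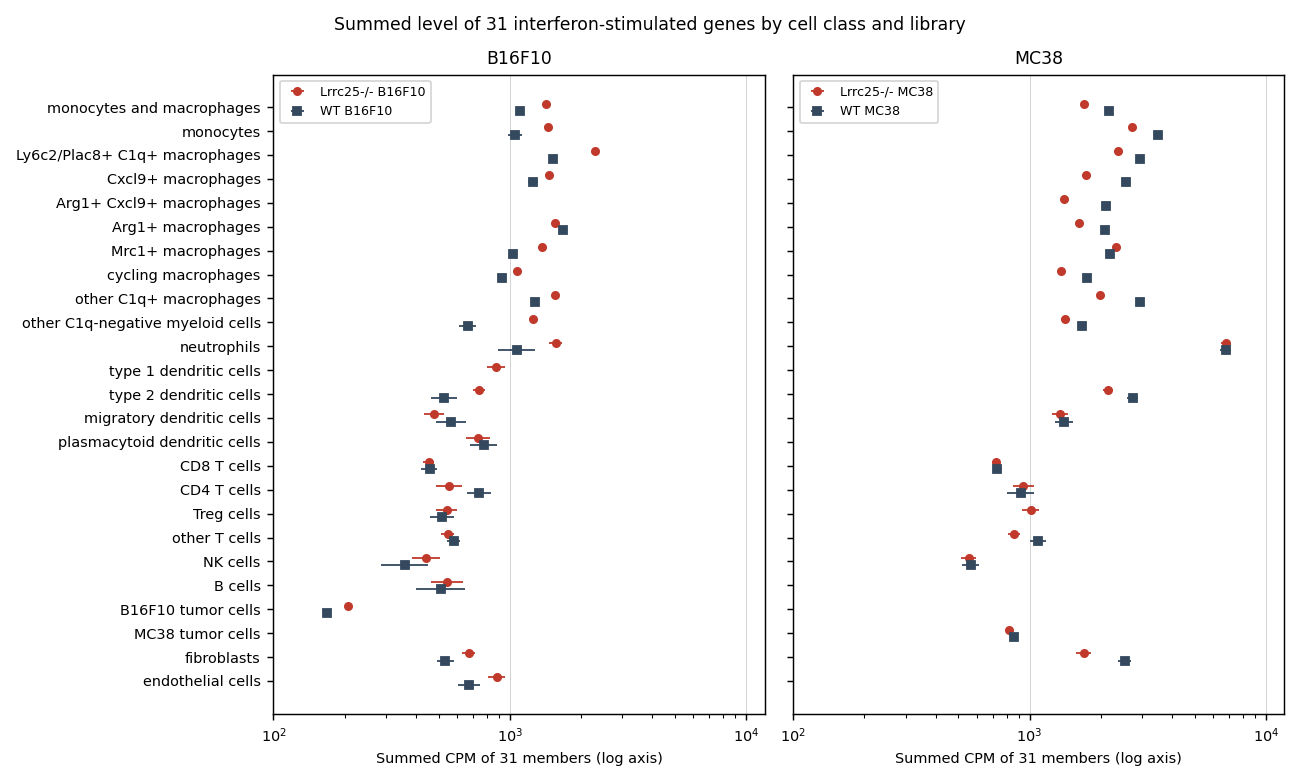
Summed CPM of 31 members (log axis) in each cell class, Lrrc25-/- (red circles) and WT (dark squares) pools, with exact Poisson intervals at 95% (counting error only), for each library with at least 50 cells of the class. MC38 neutrophils are far to the right of all other classes at 6775 and 6771 CPM, and B16F10 tumor cells are lowest at 207 and 169 CPM.

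Strongly induced cells were counted from the same UMIs as the summed levels, so their directions are not separate results. After thinning the directions were those of the sums, though in B16F10 not beyond counting error with a stricter cut. Cells of 1 pool are not replicates. Each monocyte or macrophage was thinned to 2000 UMIs, and a cell was called high when at least 10 of them came from the 31 members. In B16F10, 5.68% of Lrrc25-/- cells were high (242 of 4261, exact binomial interval 5.00 to 6.42%) against 3.61% of WT cells (134 of 3711, 3.03 to 4.26%), a ratio of 1.57 (1.27 to 1.96). In MC38, 7.11% of Lrrc25-/- cells were high (532 of 7483) against 10.5% of WT cells (808 of 7714), a ratio of 0.679 (0.607 to 0.758). With the cut 1.5 times as high, the ratio was 1.29 in B16F10 (0.937 to 1.79, an interval that includes 1) and 0.641 in MC38 (0.546 to 0.753). The median cell differed the same way, with 2 member UMIs in Lrrc25-/- and 1 in WT cells of B16F10, and 2 and 3 in those of MC38. Cells below the thinned depth were left out (630, 230, 2037 and 2061 in the order of the groups), and 97, 58, 199 and 275 cells sat at 9 or 10 UMIs, at the edge of the cut. Without thinning, 36.1% of Lrrc25-/- and 28.1% of WT cells of B16F10 and 32.2% and 31% of those of MC38 reached 10 UMIs. The MC38 direction thus did not hold without thinning, at a median of 5846 UMIs per Lrrc25-/- cell and 4345 per WT cell.

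By subset, high cells were commonest in Ly6c2/Plac8+ C1q+ macrophages of B16F10, at 11.3% of Lrrc25-/- and 7.57% of WT cells. In MC38 they were commonest in monocytes, at 15.5% of Lrrc25-/- and 19.2% of WT cells. Arg1+ Cxcl9+ macrophages differed more, at 3.70% in the Lrrc25-/- pool and 9.32% in the WT pool. In MC38 Mrc1+ macrophages 11.9% and 10.3% of cells were high, with intervals that overlap. CD8 T cells, with lower levels of the list, held 0.234% and 0 of 164 high cells in B16F10 (upper bound 2.22%) and 0.636% and 1.07% in MC38. Adding Ifitm3 and Bst2 to the list moved the MC38 ratio to 0.870 and the B16F10 ratio to 1.87.

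**Figure D4:**
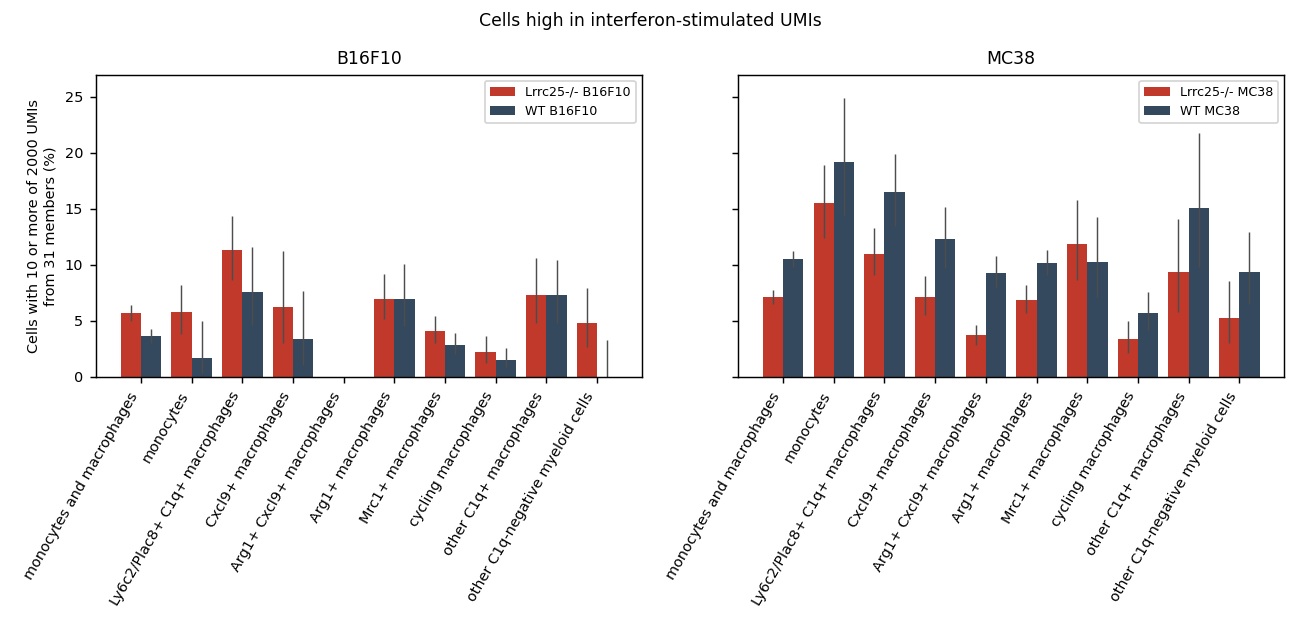
Share of cells (%) with at least 10 of 2000 thinned UMIs from 31 members, in monocytes and macrophages together and in each subset with at least 50 thinned cells, Lrrc25-/- (red) and WT (dark), with exact binomial intervals at 95%. Lrrc25-/- bars are lower than WT bars in all MC38 subsets except Mrc1+ macrophages, and in B16F10 the Arg1+ and other C1q+ pairs are level.

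In monocytes and macrophages as 1 class, the ligand that sets the pathway in motion differed between tumor models far more than between genotypes. Ifnb1, the interferon-beta gene, measured 100.0 CPM in Lrrc25-/- and 108 CPM in WT macrophages of B16F10, and 4.39 and 4.42 CPM in those of MC38. In CD8 T cells of the same libraries it measured 0.965 and 5.20 CPM in B16F10, and 0 UMIs were seen in both pools of MC38. A minority of cells carried most of it in B16F10, where 119 Lrrc25-/- cells with at least 10 Ifnb1 UMIs held 63.6% of the class's Ifnb1 UMIs and 97 WT cells held 53.9%. Ifnb1 measured 160 CPM in the Lrrc25-/- pool and 90.9 CPM in the WT pool of Ly6c2/Plac8+ C1q+ macrophages, and 85.9 and 146 CPM in those of Arg1+ macrophages. The share of cells with an Ifnb1 UMI was close in both genotypes, at 16.3% and 15.1% in the first subset and 15.9% and 17.1% in the second. The levels rest on few cells. In Ly6c2/Plac8+ C1q+ macrophages 16 Lrrc25-/- cells with at least 10 UMIs held 70.9% of the Ifnb1 UMIs, against 3 WT cells with 35.6%. In Arg1+ macrophages 13 Lrrc25-/- cells held 54.7% and 15 WT cells 68.7%. In B16F10 monocytes Ifnb1 measured 54.6 CPM in the Lrrc25-/- pool (157 UMIs) and 19.2 CPM in the WT pool (16 UMIs). In other C1q-negative myeloid cells it measured 138 CPM (323 UMIs) and 31.8 CPM (25 UMIs). In Cxcl9+, Mrc1+, cycling and other C1q+ macrophages of B16F10 it was lower in the Lrrc25-/- pool. An Ifnb1 UMI was seen in 7.06% of Lrrc25-/- and 3.93% of WT monocytes of B16F10, and in 14.6% and 10.9% of the other C1q-negative myeloid cells. There 2 Lrrc25-/- monocytes held 63.1% of the Ifnb1 UMIs of their subset, and 9 Lrrc25-/- cells of the other subset 73.4%. Ifna1 had 0 UMIs in monocytes and macrophages in all libraries, and Ifna2 and Ifna4 had at most 3.

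Cells that held Ifnb1 also held more of the list. Among thinned monocytes and macrophages of B16F10, cells with an Ifnb1 UMI averaged 6.43 member UMIs in the Lrrc25-/- pool (342 cells) against 2.62 in those without, and 5.21 (340 cells) against 1.96 in the WT pool. In MC38 the few cells with an Ifnb1 UMI averaged 27.4 (34 cells) against 3.52 in the Lrrc25-/- pool, and 21.4 (43 cells) against 4.42 in the WT pool. Cells of 1 library are not replicates, and these means are a description.

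Of 32 other genes of the pathway, 17 were measured in B16F10 macrophages and 18 in MC38 macrophages. The receptor chains were level, with Ifnar1 at 42.7 CPM in the Lrrc25-/- pool and 39.8 CPM in the WT pool of B16F10, and 86.9 and 81.9 CPM in those of MC38. Among the kinases, Ikbke, which activates Irf3 and Irf7, was the 1 pathway gene past the rule in B16F10, at 28.0 CPM in the Lrrc25-/- pool and 15.7 CPM in the WT pool (ratio 1.79). In MC38 Ikbke measured 23.4 and 35.1 CPM (ratio 0.668) and did not pass the rule. Socs1, a brake on Jak kinases, was the 1 pathway gene past the rule in MC38, at 20.2 CPM in the Lrrc25-/- pool and 10.6 CPM in the WT pool. Isg15 itself, the ubiquitin-like modifier, measured 461 and 447 CPM in B16F10 and 158 and 182 CPM in MC38. Myd88 is listed at 0 in every library, and no level is given for it.

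In monocytes and macrophages as 1 class, genes that lean towards interferon-gamma lay above 0 with the type I list in B16F10. In MC38 their median lay opposite to that of the type I list. In B16F10 macrophages 7 of 13 were measured, all 7 with a ratio above 1, with a median of 0.13 and 0 past the rule, where 4.07% of all genes were higher and 1.03% lower. By subset, their median was -0.03 in monocytes, -0.14 in Ly6c2/Plac8+ C1q+ macrophages and -0.36 in other C1q-negative myeloid cells. The type I medians there were 0.61, 0.53 and 0.67. It was -0.41 in Arg1+ and -0.01 in other C1q+ macrophages, and 0.26, 0.15 and 0.06 in Cxcl9+, Mrc1+ and cycling macrophages. In MC38 macrophages 6 of 10 measured genes were higher and 0 lower, where 0.850% of all genes were higher and 2.53% lower. Their median was 0.69, against the -0.27 of the type I list in the same cells. Among the higher genes H2-Aa measured 3310 CPM in the Lrrc25-/- pool and 2004 CPM in the WT pool, Cd74 9682 and 6146 CPM, and Nos2 281 and 162 CPM. The others past the rule were H2-Ab1, H2-Eb1 and Socs1. Cxcl9 (log2 0.45), Gbp2 (log2 0.50) and Irf1 (log2 0.51) did not pass it, and Iigp1 lay slightly below 0 (log2 -0.07). Ifng transcripts in that class measured 3.05 CPM in the Lrrc25-/- pool and 0.924 CPM in the WT pool of MC38, and 1.33 and 4.10 CPM in those of B16F10. These low values run with the T cell marker sums of the class given above, and the part of T cell RNA in them was not tested. In CD8 T cells Ifng measured 380 CPM in the Lrrc25-/- pool and 286 CPM in the WT pool of MC38, and 286 and 132 CPM in those of B16F10. In NK cells it measured 68.4 and 38.8 CPM in MC38 and 327 and 189 CPM in B16F10. In B16F10 the CD8 T and NK cells and the macrophage class thus differed in opposite directions. Treg cells (33.2 and 11.0 CPM) and other T cells (130 and 103 CPM) of B16F10 went with the CD8 T cells. CD4 T cells of B16F10, at 160 CPM in the Lrrc25-/- pool and 223 CPM in the WT pool, went with the macrophage class. MC38 tumor cells showed the same contrast between the lists, with 8 of 9 measured interferon-gamma-leaning genes higher (median 1.06, where 0.927% of all genes were higher) and a type I median of 0.01. In them Irf1 measured 441 CPM in the Lrrc25-/- pool and 273 CPM in the WT pool, and Gbp2 424 and 276 CPM. In B16F10 tumor cells the 4 genes measured (H2-Aa, H2-Ab1, H2-Eb1 and Cd74) were all higher, where 2.50% of all genes were higher and 0.239% lower. The rest of the list was too low to be measured there, and several of its genes lay near equal. Irf1 stood at 6.02 CPM in the Lrrc25-/- pool and 6.22 CPM in the WT pool, Iigp1 at 3.03 and 3.24, and Socs1 at 1.66 and 2.05. Cxcl9 stood at 3.36 and 3.13 CPM and Gbp2 at 5.56 and 4.58 CPM. Macrophage transcripts in the tumor cells stood at 1.73% and 1.27% of the macrophage level in B16F10 and at 2.30% and 1.59% in MC38, and their part in the tumor cell values was not tested.

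**Figure D5:**
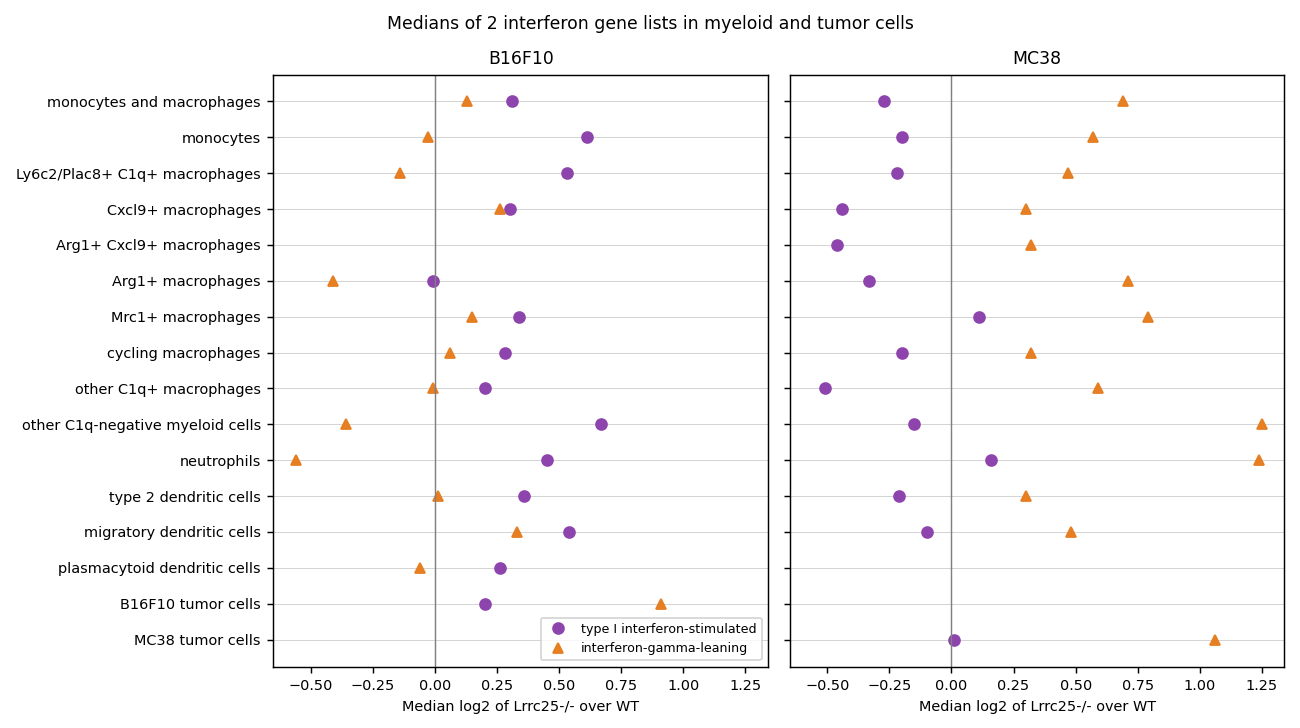
Median log2 ratio of Lrrc25-/- over WT for the type I interferon-stimulated members (purple circles) and the interferon-gamma-leaning genes (orange triangles) in myeloid and tumor cell classes, B16F10 left and MC38 right. Among the classes drawn, in MC38 every triangle lies to the right of its circle. In B16F10 every circle but that of the tumor cells lies to the right of its triangle. Lymphocytes and stromal cells are not drawn, and the pattern did not hold in all of them. In MC38 fibroblasts the interferon-gamma-leaning median was -0.70 and the type I median -0.61. In B16F10 CD4 T cells these were 0.21 and -0.33.

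Set across both models, no member was called for genotype in monocytes and macrophages. In edgeR's quasi-likelihood test of genotype with tumor model as a second term, which has 1 residual degree of freedom, 0 of 33 members passed an adjusted p of 0.05, and 0.00657% of all genes did as lower and 0 as higher. At an unadjusted p below 0.05 there was 1 member, Ifitm3 (log2 0.53, SE 0.22, adjusted p = 1.00 by edgeR), whose ratio was above 1 in both models, and 3.48% of all genes. DESeq2 called 0 members, with 1 at an unadjusted p below 0.05. The median over the members was 0.05 and 20 of 33 were above 0. With 1 B16F10 library left out, whichever it was, the median was -0.24, and with 1 MC38 library left out it was 0.30. Each of these values rests on the pair of pools of the other model alone. A genotype difference of unlike direction in the 2 models counts as error in this test. With 1 residual degree of freedom and Lrrc25 as the only gene called, 0 calls cannot show that a shared effect is absent.

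Over 17 classes tested in this way, 2 members passed, both in macrophages and both lower in the Lrrc25-/- pools. The share of all genes called ran from 0.00657% to 0.234% lower and from 0% to 0.637% higher over these classes. Ifit2 passed in Arg1+ macrophages (log2 -0.87, SE 0.19, adjusted p = 0.0278 by edgeR), where 0.117% of all genes were called lower and 0.125% higher. It measured 14.2 CPM in the Lrrc25-/- pool and 37.5 CPM in the WT pool of B16F10, and 33.6 and 48.9 CPM in those of MC38. Cmpk2 passed in Cxcl9+ macrophages (log2 -1.46, SE 0.37, adjusted p = 0.0394 by edgeR), where 0.168% of all genes were called lower and 0.0524% higher. It measured 8.20 CPM in the Lrrc25-/- pool and 10.4 CPM in the WT pool of B16F10 (13 UMIs each), and 5.27 and 21.3 CPM in those of MC38. In Mrc1+ macrophages 32 of 33 members had a genotype estimate above 0, with a median of 0.26, where the median over all genes was 0.01. At an unadjusted p below 0.05 by edgeR there were 5 members and 4.62% of all genes. Of the members 0 were called by edgeR (smallest adjusted p = 0.350), where 0.115% of all genes were called higher and 0.0707% lower.

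More members were called for tumor model than for genotype. In monocytes and macrophages 15 of 33 members were called for tumor model by edgeR, 11 higher and 4 lower in MC38, where 31.6% of all genes were called higher and 30.0% lower. The members' share of higher calls is thus close to that of all genes. Ifi44 (10.4 and 18.0 CPM in the Lrrc25-/- and WT pools of MC38, 2.14 and 1.15 CPM in those of B16F10) had the largest positive estimate, at log2 2.66 (SE 0.35, adjusted p = 0.000245 by edgeR). Eif2ak2, the RNA-activated kinase that halts translation, stood at 42.5 and 54.1 CPM in MC38 and 12.2 and 11.2 CPM in B16F10 (log2 1.64, SE 0.17). Both Stat2 (log2 1.34) and Herc6 (log2 1.42), the mouse Isg15 ligase, were also higher in MC38. In the other direction, Isg20, an RNA exonuclease, measured 4.42 and 4.62 CPM in MC38 and 17.2 and 14.6 CPM in B16F10 (log2 -2.21, SE 0.18, adjusted p = 2.7e-05 by edgeR). Ifit1 likewise measured 21.0 and 33.5 CPM in MC38 and 86.5 and 79.8 CPM in B16F10 (log2 -2.05, SE 0.20), while its neighbour Ifit2 was higher in MC38 (log2 0.65, SE 0.20, adjusted p = 0.0193 by edgeR).

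In neutrophils the summed level of the members was higher in MC38. Over 31 members it was 6775 CPM in the Lrrc25-/- pool and 6771 CPM in the WT pool of MC38, against 1568 and 1077 CPM in those of B16F10. In MC38 23 members were measured and in B16F10 6, so that many of the 29 members tested could enter the test through MC38, where they are high, and no count or median over them is given. Of the members measured in both models, Rsad2 measured 1274 and 1666 CPM in the Lrrc25-/- and WT pools of MC38, and 229 and 178 CPM in those of B16F10 (log2 2.21, SE 0.58, adjusted p = 0.00174 by edgeR). Trim30a, a regulator from the tripartite motif family, measured 576 and 552 CPM in MC38 and 89.3 and 67.8 CPM in B16F10 (log2 2.22, SE 0.56, adjusted p = 0.00125 by edgeR). Isg20 went the other way (175 and 104 CPM in MC38, 315 and 220 CPM in B16F10; log2 -1.55, SE 0.53, adjusted p = 0.0179 by edgeR). Members near 0 in B16F10 rest on few molecules there, Herc6 on 6 and 1 UMIs, Ifi204 on 36 and 1 UMIs and Ifit2 on 1 and 0 UMIs in the Lrrc25-/- and WT pools, against 44 and 36, 127 and 103, and 48 and 20 UMIs in those of MC38. These values rest on 220 and 156 neutrophils in MC38 and 391 and 73 in B16F10, at a median of 1078 to 1364 UMIs per cell. Macrophage transcripts summed to 1005 and 619 CPM in the MC38 neutrophils and to 1708 and 1653 CPM in the B16F10 neutrophils, and their part in the members' values was not tested. In type 2 dendritic cells the sum of 31 members was 2156 CPM in the Lrrc25-/- pool and 2741 CPM in the WT pool of MC38, against 743 and 528 CPM in those of B16F10.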

How the data were processed

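The deposited values are unnormalized UMI counts for each gene in each barcode, from a SeekOne Digital Droplet 3′ kit, per the labels' protocols. Reads were placed on mm10, per the submitters' processing notes, with the aligner, counting tool and cell calling not given in the sources used here. Gene positions came from GENCODE M21.

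Barcodes with at least 300 genes, 500 UMIs and at most 20% mitochondrial UMIs were kept, and the highest Scrublet doublet scores (scanpy 1.11.5, Python 3.11.15) were removed at 0.5% per 1000 cells, since its automatic threshold called 0% to 2.07%. Cells were assigned by the leading of 14 marker lists (runner-up at most 0.75 of the top score). In the order Lrrc25-/- B16F10, WT B16F10, Lrrc25-/- MC38 and WT MC38, 651, 412, 899 and 705 cells were mixed and 703, 434, 960 and 1802 unassigned. Macrophage subsets were gated at 5 C1q UMIs and 2 UMIs of Ly6c2 plus Plac8, Arg1, Cxcl9 or Mrc1 per 10000. UMIs were summed per class and scaled to CPM. Intervals are exact Poisson, conditional binomial or Clopper-Pearson at 95%, and cover counting error only.

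Genotype and tumor model were tested on class sums of the 4 libraries with edgeR 4.0.16 (R 4.3.3; TMM, filterByExpr, Benjamini-Hochberg over all genes tested), after a test on simulated data, with DESeq2 1.42.0 as an alternative. These p-values measure only the spread between these pools. Full values are given for members past the 1.5-fold rule in monocytes and macrophages and for its 3 most abundant members, and elsewhere for at most 6 per class. Members and lists were chosen with earlier results of these data known. Columns left unused numbered 0.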

Additional observations from a re-analysis of the deposited data

Results flagged for a closer look

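The following results moved in opposite directions in the B16F10 and MC38 models. With 1 pool per group the difference between the models was not tested, and no explanation was weighed. The log2 ratio of Ifi205, Lrrc25-/- over WT in monocytes and macrophages, was 1.18 in B16F10 and -0.84 in MC38. The median log2 ratio of the interferon-stimulated list in the same class was 0.31 in B16F10 and -0.27 in MC38. The ratio of the share of cells high in interferon-stimulated UMIs was 1.57 in B16F10 and 0.679 in MC38. For Ifi205 the opposite directions held in 8 of 8 subsets of B16F10 (ratio above 1) and 9 of 9 subsets of MC38 (ratio below 1).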

How the results depend on the processing

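The list median in monocytes and macrophages ran from 0.28 to 0.32 in B16F10 and from -0.30 to -0.21 in MC38 over 10 alternatives (other scaling, pseudocount, filters, doublet removal, Leiden classes, common subset mix), with 30 to 33 and 2 to 3 of 33 members above 0. In B16F10 the 3 higher members became 1 with a common mix of subsets and 1 at a fold threshold of 2. In MC38 the 6 lower members became 0 at a fold threshold of 2. Ifit1 fell below the rule with TMM (-0.58) and a pseudocount of 5 CPM (-0.56), and Ifih1 with TMM (-0.57) and DESeq2 size factors (-0.58). With Ifitm3 and Bst2 in the list the MC38 ratio of high cells was 0.870. Leaving out 1 library at a time gave a genotype median of -0.24 or 0.30 (0.05 with all 4), and a tumor model median of -0.10 or 0.65 (0.36 with all 4). By design, the genotype median then rests only on the model that keeps both genotypes. The tumor model median rests only on the genotype that keeps both models. These values therefore repeat single pairs of pools and do not check the fit. Members called for tumor model numbered 13 to 20 (15 by edgeR with a filter) and members called for genotype 0 under every tool. No call reversed. Of 19 and 18 classes in B16F10 and MC38, 4 and 4 changed the sign of their median under some alternative. No paired analysis was possible because each group is 1 library and the labels carry no replicate numbers. Small classes (53 to 110 cells in a pool) limit the depth of fibroblast, neutrophil and C1q-negative myeloid values.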

Other observations

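The level of Ifnb1 and the level of the list did not run in parallel across the tumor models. Ifnb1 in monocytes and macrophages measured 4.39 and 4.42 CPM in the Lrrc25-/- and WT pools of MC38 and 100.0 and 108 CPM in those of B16F10, whereas the sum of 31 members measured 1701 and 2164 CPM in MC38 and 1431 and 1106 CPM in B16F10.

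Isg20 was lower in MC38 in several myeloid and other classes beside those described above. Its tumor model estimate, MC38 over B16F10, was log2 -2.12 in monocytes (adjusted p = 1.1e-09 by edgeR), -3.12 in Ly6c2/Plac8+ C1q+ macrophages (adjusted p = 7.78e-26 by edgeR) and -2.03 in Cxcl9+ macrophages (adjusted p = 0.000136 by edgeR). In these 3 classes 4499 of 8490, 5510 of 10188 and 5556 of 9547 genes were called for tumor model in either direction. Outside myeloid cells the Isg20 estimate was log2 -2.56 in fibroblasts, -2.04 in CD4 T cells, -1.96 in other T cells and -1.25 in CD8 T cells.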
